A study of Mus musculus with 2 samples.

Results

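Ventricular cardiomyocyte nuclei with little mitochondrial RNA were taken as the barcodes in which 200 genes or more were detected, no more than 5% of UMIs were mitochondrial and 3 further conditions held. The 13 ventricular muscle genes Ttn, Ryr2, Myh6, Tnnt2, Actc1, Myl2, Mybpc3, Tnni3, Tnnc1, Mb, Tcap, Pln and Atp2a2 had to sum to at least 3% of the non-mitochondrial UMIs. Fewer than 3 of the 6 atrial genes Myl7, Myl4, Bmp10, Sbk2, Nppa and Sln could be detected, and at most 2 UMIs could fall on the 9 genes Pdgfra, Col1a1, Pecam1, Cdh5, Ptprb, Pdgfrb, Csf1r, Ptprc and Msln of other cells. The rule took 1764 of 15077 barcodes from CF-KI and 2110 of 11257 from the control, or 3874 of 26334 in all. A UMI is a molecular tag that counts a captured RNA molecule once. The members were thus chosen by their mitochondrial share and by these 28 genes, whose values are given below as a description.

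The series compared nuclei of mouse cardiac tissue from CF-KI animals, with constitutive activation of NLRP3 in fibroblasts, and from controls, with the 10x Genomics 3′ v3 chemistry. CF-KI mice had the genotype Tcf21-MerCreMer;Nlrp3-A350V/A350V and controls Tcf21-MerCreMer;Nlrp3-WT/WT. Both groups were male C57Bl6/J mice of 3.5 months, and both received tamoxifen, which activates the MerCreMer recombinase. The driver follows Tcf21, a transcription factor gene of fibroblasts, and the series record states that the altered allele is silent where Cre is not expressed, so the design does not target myocytes. Each group was 1 library, and the labels do not give the number of animals behind a library or the chambers of the heart that were used. Every difference below is therefore between 2 libraries, with no replicate check and no test, and all intervals are 95% intervals of counting error only. Genotype cannot be told apart from anything else that differed between the libraries.

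Ventricular myocytes contract through sarcomeres, in which myosin thick filaments pull on actin thin filaments along the titin spring. Calcium released from the sarcoplasmic reticulum through the ryanodine receptor starts each beat, and the ATP comes mostly from mitochondrial oxidation of fatty acids. A nucleus holds unspliced and newly made RNA, while mitochondrial transcripts and most mature mRNA lie in the cytoplasm.

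The members held 3371072 non-mitochondrial UMIs for CF-KI against 5469187 for the control. The median was 1707.5 non-mitochondrial UMIs per nucleus for CF-KI against 2279 for the control, and 252 and 236 genes were detected at the median after each nucleus was thinned to 500 UMIs. Of all barcodes, 46 barcode sequences occurred in both libraries, and 2 of these were members in both. The doublet caller Scrublet marked 114 CF-KI members (6.46%) and 33 control members (1.56%), and no barcode was removed for this. Over each whole library it marked 16.3% (CF-KI) and 0.933% (control), so its calls were not alike in the libraries.

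Ttn and Tnnt2 are rule genes, so their presence follows from the choice of members and is a description. After thinning, a Ttn UMI was found in 99.0% of CF-KI and 99.9% of control members, and a Tnnt2 UMI in 95.2% and 94.5%. UMIs of these genes were also found outside the members: among kept barcodes with a ventricular sum under 3% and more than 2 UMIs of the other cell genes (117 for CF-KI against 1343 for the control, with median depths of 2080 and 1157 non-mitochondrial UMIs, called the reference barcodes of other cells below), the share with a Ttn UMI was 65.8% and 49.4% and with a Tnnt2 UMI 37.6% and 25.2%. Outside the rule, 22 genes of the thick filament, thin filament and Z-disc lists had at least 100 UMIs, and 21 of these were found in a larger share of members than of those reference barcodes in both libraries. This describes muscle and does not separate ventricular from atrial muscle. Atrial genes were scarce in the members, as the rule required: none of the 6 was detected in 72.3% of CF-KI and 70.7% of control members. The 10 conduction system genes summed to 48.9 CPM (CF-KI) and 69.8 CPM (control), where CPM is the UMIs of a gene per 1000000 non-mitochondrial UMIs of a library's members.

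RNA of other cell types was present in both libraries, and its order between them depended on the list and on the mitochondrial share. The 12 fibroblast genes summed to 1711 CPM (1667 to 1755) for CF-KI against 1092 CPM (1064 to 1120) for the control. The 12 endothelial genes summed to 738 and 285 CPM, the 11 macrophage and monocyte genes to 241 and 163 CPM, and the 5 erythroid genes, chiefly haemoglobin, to 984 and 287 CPM. All members of the first 3 lists and of the erythroid list had UMIs in both libraries. In nuclei with 1% to 2% mitochondrial UMIs the order turned for fibroblast genes, at 1401 CPM (1323 to 1484) against 1810 CPM (1692 to 1935), and for macrophage and monocyte genes, at 166 CPM (140 to 196) against 289 CPM (243 to 341). Endothelial genes there stood at 605 CPM (554 to 660) against 521 CPM (459 to 590), with overlapping intervals, and erythroid genes at 820 CPM (760 to 883) against 563 CPM (498 to 634). Lymphocyte genes were low and lower in CF-KI over all members, at 8.60 and 15.0 CPM. Airway genes were lower in CF-KI too, with 4.75 CPM for CF-KI against 339 CPM for the control, where Scgb1a1, the secretoglobin of airway club cells, had 16 and 1003 UMIs. For Bpifa1, another airway gene, the counts were 0 and 445 UMIs, so that CF-KI was at least 91.4-fold lower if its count is set to 3 UMIs. In nuclei with 1% to 2% mitochondrial UMIs Scgb1a1 had 2 and 110 UMIs and Bpifa1 0 and 49. In the other kept barcodes of the control library Scgb1a1 stood at 581.5 CPM and Bpifa1 at 227.5 CPM. The part of this RNA in the results below was not tested.

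The nuclei near the limits show how sharply the rule divides the data. In CF-KI 170 members had a ventricular sum of 3% to 3.5% and 83 otherwise qualifying barcodes lay at 2.5% to 3%, and in the control these were 267 and 163. The lowest sums inside were 3.008% and 3.002%, and the highest sums outside 2.995% and 2.997%. In the control the low point below the limit was 69 barcodes at 2% to 2.25%, with 103 at 2.75% to 3% and 138 at 3% to 3.25%. In CF-KI there were 38 barcodes at 2.5% to 2.75%, 54 at 2.75% to 3% and 92 at 3% to 3.25%. The limit thus cut the rising side of the members' peak in both libraries. The mitochondrial limit fell within the bulk of the CF-KI nuclei, with 377 members at 4% to 5% and 307 barcodes at 5% to 6%, against 22 and 21 in the control. The rule on other cells kept out 79 CF-KI and 89 control barcodes, and the rule on atrial genes 5 and 42.

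**Figure D1:**
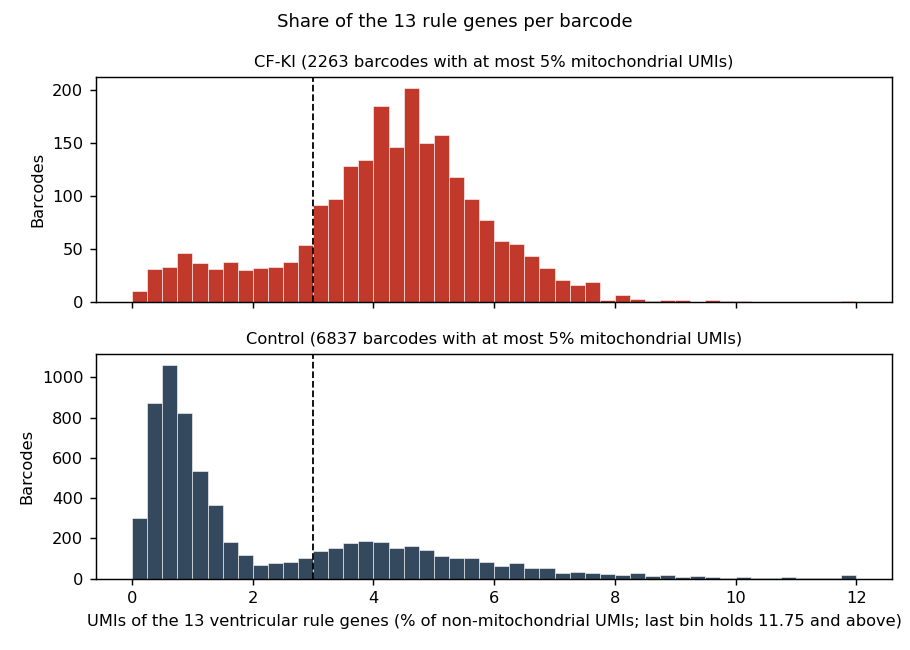
Barcodes within the limits on genes and mitochondrial UMIs (y axis, count) by the share of non-mitochondrial UMIs on the 13 ventricular genes (x axis, %), for CF-KI (top) and the control (bottom). The dashed line is the limit of 3%, and the members' medians lie at 4.69% (CF-KI) and 4.71% (control).

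Members were 77.9% (76.2 to 79.6, Clopper-Pearson) of the 2263 CF-KI barcodes within 200 genes and 5% mitochondrial UMIs and 30.9% (29.8 to 32.0) of the 6837 control barcodes. The difference of 47.1 percentage points (45.0 to 49.1) depended on the limits and was 30.2 points with no mitochondrial limit and 21.3 points with a limit of 1%. Over all barcodes the order was reversed, with 1764 members of 15077 barcodes in CF-KI and 2110 of 11257 in the control. The sign of the difference in member share thus depended on which barcodes formed the denominator. The 5% limit cut through the CF-KI nuclei more than through the control nuclei. By the other criteria alone 7838 CF-KI and 2479 control barcodes qualified, of which 22.5% and 85.1% were within the limit.

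Among the members the mitochondrial share hardly overlapped in its bulk. Its median was 2.88% in CF-KI, with the middle 90% of nuclei from 0.936% to 4.75%, and 0.374% in the control, from 0.0674% to 2.37%. At up to 0.5% there were 16 CF-KI and 1289 control nuclei, from 0.5% to 1% there were 89 and 427, from 1% to 2% 381 and 243, and from 2% to 5% 1278 and 151. The libraries met best from 1% to 2%, and ratios in these 381 and 243 nuclei, called the matched band below, are added for the genes of the lists where they ended a 1.5-fold difference or moved by more than 1.5-fold. The band was chosen after the shares were seen. It lies below the CF-KI median and above the control median, so it holds different ends of the libraries. Its median share was 1.54% (CF-KI) and 1.34% (control), and its median depth 2001 and 1652 non-mitochondrial UMIs, so the match is partial. Median depth declined with the mitochondrial share in both libraries, from 3121.5 to 1626.5 non-mitochondrial UMIs for CF-KI, with 2652 to 1545 for the control. The median ventricular sum stayed between 4.48% and 4.83% over these 8 groups of nuclei.

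**Figure D2:**
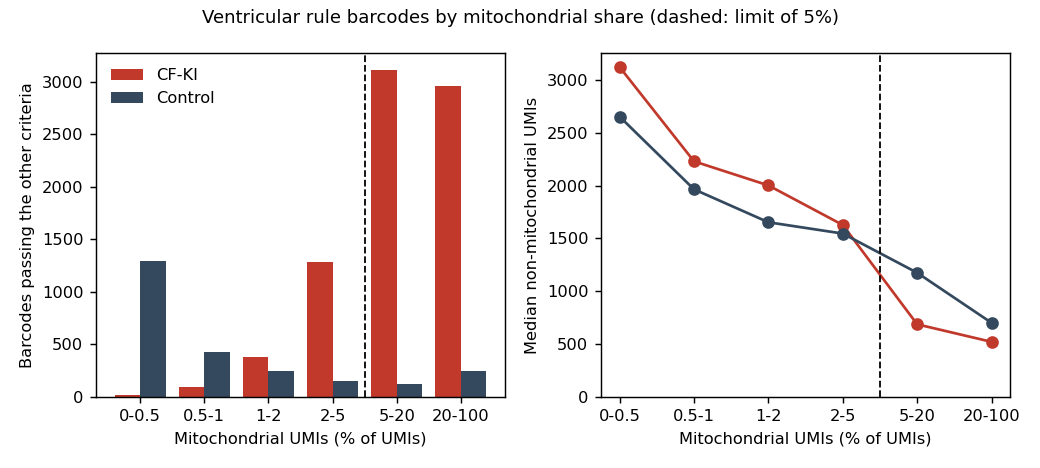
Barcodes that meet all other criteria (left, count) and their median non-mitochondrial UMIs (right) by mitochondrial share (x axis, % of UMIs), with CF-KI in red and the control in grey; the dashed line is the limit of 5%. Most control barcodes lie at the left end, with 1289 at up to 0.5%, and most CF-KI barcodes at 2% or more, with 1278 from 2% to 5%.

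The altered gene itself was near the detection limit in these nuclei. Nlrp3 (ENSMUSG00000032691, chromosome 11, 59541568 to 59566956, plus strand of GRCm38), the sensor of the inflammasome, had 7 UMIs in CF-KI (2.08 CPM, 0.835 to 4.28) and 1 in the control (0.183 CPM, 0.00463 to 1.02). The intervals of the levels overlap, which does not by itself place the difference within counting error. No ratio is given for counts this low. Reads from the 3′ end do not separate the altered from the wild-type allele, so these counts do not check the genotype. In the other kept barcodes its levels were 3.39 CPM (CF-KI) and 2.52 CPM (control). Tcf21, which drives the recombinase, had 12 UMIs (3.56 CPM) in CF-KI and 15 UMIs (2.74 CPM) in the control, a log2 ratio of 0.38 (-0.85 to 1.57) that counting error covers, and stood at 13.6 and 40.2 CPM in the other kept barcodes.

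Over all genes, 7130 had at least 100 UMIs in the members of both libraries together. Of these, 1185 (16.6%) were at least 1.5-fold higher in CF-KI and 472 (6.62%) at least 1.5-fold lower, and the median log2 ratio was 0.083. At 2-fold the shares were 6.06% and 1.28%. In the matched band, where 1465 genes reached the minimum, 12.7% were higher and 12.7% lower by 1.5-fold and the median was -0.04, and over the wider band from 1% to 5% 12.2% of 4400 genes were higher and 13% lower. These shares are the background for the gene lists below, and higher and lower without a further word mean a difference of at least 1.5-fold in CF-KI against the control.

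Genes of the contractile apparatus did not move as a block. In the thick filament list, of 10 genes that passed the minimum, 3 were higher and 1 lower, with a median log2 ratio of -0.31, and in the thin filament list, of 8 that passed among 10 listed, 4 were higher and 0 lower, with a median of 0.61. The division ran between genes within the filaments. Myl2, the ventricular regulatory light chain and a rule gene, stood at 1923 CPM (1876 to 1970) for CF-KI against 608 CPM (588 to 629) for the control, a log2 ratio of 1.66 (1.60 to 1.72). Myl3, the essential light chain, stood at 1671 and 687 CPM, a log2 ratio of 1.28 (1.22 to 1.34) and 0.68 in the matched band. Myom2, an M-band protein gene, was among the lowest with -0.58. Myh7, the slow heavy chain of the stressed and fetal mouse ventricle, had 1016 UMIs in each library, which is 301 CPM for CF-KI against 186 CPM for the control, a log2 ratio of 0.70 (0.57 to 0.82). Myh7 had 0.28 and Myl2 0.93 in the matched band, both smaller.

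Among thin filament genes, Actc1, the cardiac actin, stood at 1301 CPM for CF-KI against 490 CPM for the control, a log2 ratio of 1.41 (1.34 to 1.48) and 0.84 in the matched band, and Tpm1, the tropomyosin gene, at 2608 and 1078 CPM, a ratio of 1.27 (1.23 to 1.32). The lowest were Tmod1, which caps the pointed end of actin, with -0.29 (-0.46 to -0.13), and Tnnt2, with 0.22. At the Z-disc, 4 of 13 genes were higher and 1 lower, with a median of 0.34. The lower gene was Ttn itself, the titin gene, at 14547 CPM (14419 to 14677) for CF-KI against 24739 CPM (24607 to 24871) for the control, a log2 ratio of -0.77 (-0.78 to -0.75). Ttn was lower in CF-KI in each of the 4 groups by mitochondrial share, with 14223 to 17156 CPM against 24510 to 24816 CPM. Tcap, the telethonin gene whose product caps titin at the Z-disc, went the other way, with 1505 CPM (1463 to 1547) and 505 CPM (486 to 524), a log2 ratio of 1.58 (1.51 to 1.64) that was 1.505 in the matched band. Cryab, a small heat shock protein of the Z-disc, had 1.41 and 0.71 in the matched band.

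Calcium release and uptake genes had a median log2 ratio of 0.47 over 14 members that passed of 17 listed, with 4 higher and 0 lower, and 0.26 in the matched band. Ryr2, the release channel and a rule gene, stood at 1944 CPM for CF-KI against 2756 CPM for the control, a log2 ratio of -0.50 (-0.54 to -0.46), and was the lowest of the list together with Asph (-0.27), the aspartate hydroxylase locus that also encodes junctin. The highest was Dhrs7c, a dehydrogenase of the sarcoplasmic reticulum, with 62.9 CPM (54.7 to 72.0) and 11.0 CPM (8.37 to 14.1) from 212 and 60 UMIs, a log2 ratio of 2.52 (2.10 to 2.96). Dhrs7c had 1.66 in the matched band, from 50 and 9 UMIs.

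Electrical genes were close to the background. For 14 potassium channel genes that passed of 18, 0 were higher and 2 lower with a median of -0.01, and for 5 sodium and calcium channel genes that passed of 14, 1 was higher and 1 lower with a median of -0.04. Kcnv2, a silent modifier subunit of Kv2 channels, stood at 9.20 CPM (6.25 to 13.1) for CF-KI against 22.3 CPM (18.5 to 26.6) for the control, a log2 ratio of -1.28 (-1.90 to -0.70). Kcnh2, the channel of the rapid delayed rectifier, had -0.61 (-1.13 to -0.12) from 48 and 119 UMIs and -0.49 in the matched band. The highest potassium channel genes were Abcc9 (0.56), the sulfonylurea receptor subunit that pericytes also express, and Kcnj5 (0.51, -0.06 to 1.08). Cacnb2, the calcium channel beta subunit, had 0.59 (0.49 to 0.68) and 0.34 in the matched band, and Cacna1g, the T-type channel, -0.80 (-1.42 to -0.21) from 33 and 93 UMIs.

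At the intercalated disc, which couples myocytes end to end, 1 of 15 genes that passed was higher and 1 lower, with a median of 0.06. The higher gene was Gja1, connexin 43, at 798 CPM (768 to 829) for CF-KI against 490 CPM (472 to 509) for the control, a log2 ratio of 0.70 (0.63 to 0.78) and 0.57 in the matched band. Desmosomal genes were split, with Dsp, desmoplakin, at 0.48 (0.34 to 0.62) and Dsg2, a desmosomal cadherin, at -0.61 (-0.87 to -0.36) and -0.33 in the matched band. Ctnnb1, beta catenin, had -0.43.

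**Figure D3:**
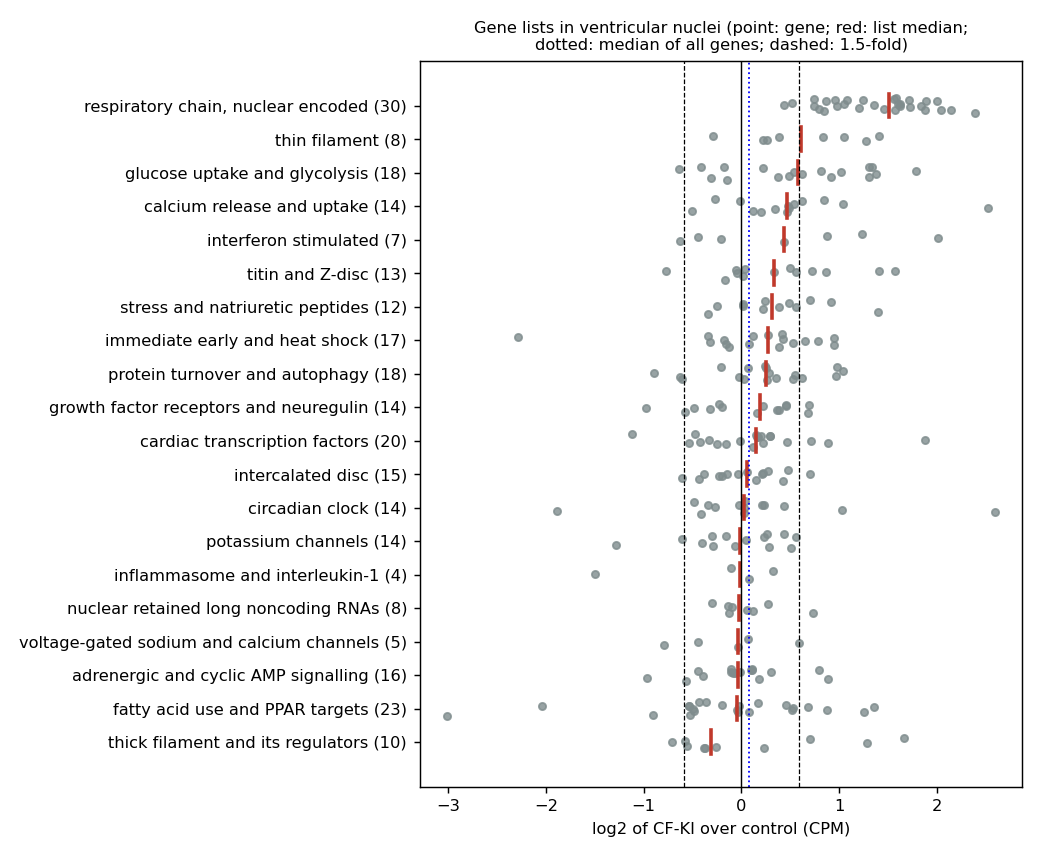
Log2 ratio of CPM, CF-KI over control (x axis), for each gene that passed 100 UMIs (grey points) in 20 gene lists (y axis, number of genes in brackets), with the list median in red, the median of all genes dotted and 1.5-fold dashed. The respiratory chain list lies furthest to the right with a median of 1.51, and single genes such as Ucp3 at -3.01 and Dbp at 2.60 lie far from their lists.

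Genes of fuel choice held some of the lowest ratios. The fatty acid and PPAR target list as a whole had a median log2 ratio of -0.04, with 4 of 23 genes that passed higher and 3 lower. Ucp3, a mitochondrial carrier gene induced by fatty acids, stood at 7.42 CPM (4.80 to 10.9) for CF-KI against 59.8 CPM (53.5 to 66.6) for the control from 25 and 327 UMIs, a log2 ratio of -3.01 (-3.66 to -2.42). Pdk4, the kinase that shuts pyruvate out of mitochondria, stood at 18.1 CPM (13.8 to 23.2) and 74.2 CPM (67.2 to 81.8), a ratio of -2.04 (-2.45 to -1.65). These genes belong to the fasting and PPAR response of muscle. Cpt1b, the carnitine transferase that admits fatty acids to mitochondria, was the third lower gene, at 144 and 268 CPM, a log2 ratio of -0.90 (-1.05 to -0.75), and is named as such after its values were seen. At the other end, Fabp3, the heart fatty acid binding protein, stood at 779 and 304 CPM, a log2 ratio of 1.36 (1.27 to 1.45) and 0.68 in the matched band, and Ech1, an isomerase of beta oxidation, had 1.26 (1.13 to 1.39).

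Ucp3 and Pdk4 were also compared in nuclei of like mitochondrial share. The matched band gave Ucp3 a log2 ratio of -2.09 (-3.60 to -0.75), from 7 and 17 UMIs, and Pdk4 one of -2.21 (-3.36 to -1.16), from 11 and 29 UMIs. From 2% to 5% the levels were 7.11 CPM (4.06 to 11.5) against 73.4 CPM (44.8 to 113) for Ucp3, and 20.4 CPM (15.0 to 27.2) against 62.4 CPM (36.3 to 99.9) for Pdk4. Within a library, nuclei of at least 1% and under 1% mitochondrial UMIs differed in Pdk4 by a log2 ratio of 0.33 (-1.11 to 2.25) within CF-KI, from 57 and 4 UMIs, and -0.32 (-0.80 to 0.12) within the control, from 46 and 360 UMIs, and both intervals include 0. The control level was the higher in all 4 groups by mitochondrial share for both genes, and the intervals of the libraries were apart in each but the group of up to 0.5%, where CF-KI had 1 UMI of each gene.

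Txnip, a glucose-induced inhibitor of glucose uptake that also binds thioredoxin and NLRP3, was lower in CF-KI as well. It stood at 148 CPM (136 to 162) for CF-KI against 419 CPM (402 to 437) for the control, a log2 ratio of -1.50 (-1.64 to -1.36), and was the lower gene among 4 inflammasome and interleukin-1 genes that passed of 21 listed. The ratio in the matched band was -1.44. Other cells hold Txnip RNA too: the other kept barcodes stood at 396 and 465 CPM, and after thinning Txnip was found in 7.66% and 19.1% of members against 31.6% and 22.9% of the reference barcodes of other cells. The part of RNA from other cells in this difference was not tested. Mlxipl, which encodes ChREBP, the glucose-responsive factor known to act on Txnip, is named after its values were seen and stood at 108 CPM (97.5 to 120.0) and 221 CPM (208 to 233), a log2 ratio of -1.03 (-1.20 to -0.86) and -1.34 in the matched band. In the glycolysis list 9 of 18 genes that passed were higher and 1 lower, with a median of 0.58. The matched band had 5 of 11 higher and 2 lower, with a median of 0.57. The highest were Pgk1, phosphoglycerate kinase, at 1.79 (1.35 to 2.24) but 0.08 in the matched band, and Gapdh at 1.37 (1.22 to 1.53) and 0.93. The lowest were Pfkfb2, the cardiac enzyme that makes the activator of phosphofructokinase, at -0.64 (-0.82 to -0.47), and Pfkfb1 at -0.41 (-0.92 to 0.08).

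The 250 bases before the start of Txnip, Mlxipl and Ucp3 are shown because these genes were low together, a choice made after their values were seen. They come from RefSeq on GRCm38.p6, where all 4 symbols looked up (with Pdk4) were found, and lie at chr3:96557707-96557956, chr5:135089640-135089889 and chr7:100472741-100472990, all on the plus strand. Capitals mark, on either strand, the motif CACGNG for Txnip and Mlxipl and the nuclear receptor motif AGGTCA for Ucp3.
Txnip: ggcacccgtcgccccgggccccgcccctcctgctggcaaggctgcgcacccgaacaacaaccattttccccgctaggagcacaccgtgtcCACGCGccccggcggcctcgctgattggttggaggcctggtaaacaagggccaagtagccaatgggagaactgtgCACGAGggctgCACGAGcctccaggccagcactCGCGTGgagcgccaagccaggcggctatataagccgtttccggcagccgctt
Mlxipl: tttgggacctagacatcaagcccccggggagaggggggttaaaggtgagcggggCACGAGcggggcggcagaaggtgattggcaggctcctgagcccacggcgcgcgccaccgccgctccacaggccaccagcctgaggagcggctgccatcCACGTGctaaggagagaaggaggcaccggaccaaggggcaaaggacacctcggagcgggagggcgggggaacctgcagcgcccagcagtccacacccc
Ucp3: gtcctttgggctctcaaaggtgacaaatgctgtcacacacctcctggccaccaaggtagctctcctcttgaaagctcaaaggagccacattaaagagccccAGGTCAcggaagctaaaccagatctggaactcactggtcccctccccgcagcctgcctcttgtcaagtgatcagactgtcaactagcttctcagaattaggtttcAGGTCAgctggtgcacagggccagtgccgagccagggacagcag
Txnip held 4 matches to CACGNG, of which the pair CACGAG and CACGAG began 85 and 74 bases before the start, and Mlxipl held 2, of which the match beginning 98 bases before the start was CACGTG. Of 32851 windows of this length before RefSeq starts, 23.5% held CACGNG at least once and 0.244% at least 4 times, and 6.02% held CACGTG, which CACGNG includes. AGGTCA occurred at 149 and 44 bases before the start of Ucp3 and in 14.0% of all windows, with 2 or more in 1.36%. The window of Pdk4 held 0 matches to AGGTCA, and so did the second RefSeq start of Mlxipl for CACGNG. These letters describe the windows and say nothing of what was bound there.

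Nuclear genes of the respiratory chain were higher in CF-KI almost throughout. Of 30 listed, 30 passed the minimum, 28 were higher and 0 lower, with a median log2 ratio of 1.51, and the list summed to 10746 CPM (10636 to 10858) for CF-KI against 4346 CPM (4291 to 4402) for the control. In the other kept barcodes the list summed to 8373 and 5147 CPM. Against these barcodes, which are not the whole rest of each library, the control members lay lower and the CF-KI members higher. Erythroid genes made up 194024 CPM of the CF-KI set of other kept barcodes, against 2257 CPM for the control set. A share this large lowers the CPM of all other genes in that CF-KI set. Its part in the order seen for CF-KI was not tested. Cox7a1, the muscle form of a complex IV subunit, stood at 195 CPM (180 to 210) and 37.1 CPM (32.2 to 42.6), a log2 ratio of 2.39 (2.16 to 2.63). Uqcr11, a complex III subunit, had 2.14 (1.96 to 2.33) and 1.34 in the matched band. After thinning, 7 of the 30 genes were found in a larger share of members than of the reference barcodes in both libraries, and 12 in neither. For Ndufa4, a subunit of complex IV, the shares were 21.8% and 6.40% of members against 31.6% and 11.2%, and for Cox7a1 10.4% and 2.61% against 3.42% and 3.50%. The lowest were Sdhc, the membrane anchor of complex II, at 0.43 (0.15 to 0.72), and Ndufs1, the largest subunit of complex I, at 0.52 (0.34 to 0.70). The ratios of this list depended on the mitochondrial share of the nuclei compared. In the matched band the median was 0.95, with 24 of 28 genes higher and 0 lower. Within a library, nuclei with at least 1% mitochondrial UMIs (1660 for CF-KI against 394 for the control) exceeded those under 1% (104 and 1716) by a median of 0.45 within CF-KI and 0.66 within the control. In that contrast within CF-KI, 6 of 30 genes were at least 1.5-fold higher at the larger share, where 16.7% of all 3840 genes tested were higher and 3.54% lower. Within the control it was 17 of 30, where 14.4% of 5142 genes were higher and 1.63% lower.

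Ribosomal protein and haemoglobin genes were higher in CF-KI too, and less so in the matched band. Genes for cytosolic ribosomal proteins made up 0.957% of non-mitochondrial UMIs for CF-KI against 0.425% for the control, with 73 of 78 that passed higher, 0 lower and a median of 1.27, which was 0.37 in the matched band. The 4 haemoglobin genes, near-identical copies whose split between loci is uncertain, had a median of 1.69 and 0.55 in the matched band. Hbb-bs stood at 560 CPM for CF-KI against 143 CPM for the control, a log2 ratio of 1.97 and 0.69 in the matched band, and its level was higher in each group of higher mitochondrial share, from 389.5 to 615.5 CPM for CF-KI, with 103 to 433 CPM for the control. Malat1, a nuclear retained long noncoding RNA, went the other way, with 420159 CPM for CF-KI against 458400 CPM for the control, a log2 ratio of -0.13, and 0.10 in the matched band. In the list of nuclear retained RNAs 1 of 8 genes that passed was higher and 0 lower, with a median of -0.02. The exception was Gm42418, which overlaps ribosomal RNA and had 0.73 (0.71 to 0.76) but 0.01 in the matched band. The lowest of that list was Snhg14 with -0.30.

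Gene span on the genome was related to the ratio. Positions from GENCODE vM21 on GRCm38 were found for 7128 of the 7130 genes. In the 10% of genes with the shortest spans (median 2.90 kb) the median log2 ratio was 0.45 and 42.2% of genes were at least 1.5-fold higher in CF-KI, while in the 10% with the longest (median 215 kb) the median was -0.04 and 7.85% were. Across these genes, which share 2 libraries and are not independent, Pearson's r with log2 span was -0.25. The gradient was present in the matched band, from 0.38 to -0.19. It was weaker between nuclei of at least 1% and under 1% within CF-KI (0.23 to -0.0049) and within the control (0.28 to 0.16). Of the genes in the preceding paragraphs, Cox7a1 spans 1.94 kb, Tcap 1.14 kb and Ttn 279 kb, while Ucp3 spans 13.4 kb and Txnip 3.93 kb.

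**Figure D4:**
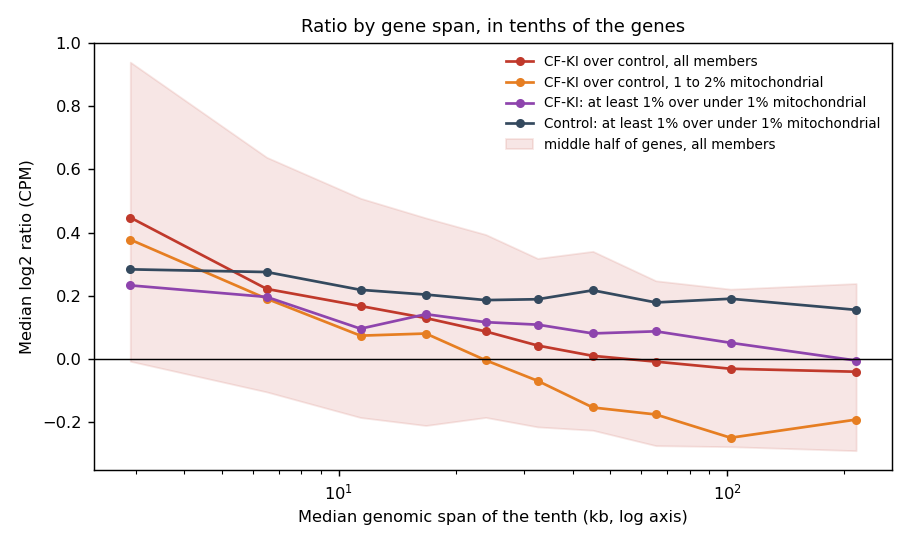
Median log2 ratio of CPM (y axis) in 10 groups of genes by genomic span (x axis, kb, log scale), for CF-KI over control in all members (red, with the middle of the genes (quartiles) shaded) and in the matched band (orange), and for nuclei of at least 1% over under 1% mitochondrial UMIs within CF-KI (purple) and within the control (grey). All 4 lines are higher at short spans, and the 2 lines between the libraries drop the most, from 0.45 to -0.04 and from 0.38 to -0.19.

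Among cardiac transcription factor genes 3 of 20 that passed were higher and 1 lower, with a median of 0.16. Hand2, a basic helix-loop-helix factor of the right ventricle and of sympathetic and stromal heart cells, stood at 297 CPM (279 to 316) for CF-KI against 80.5 CPM (73.1 to 88.3) for the control, a log2 ratio of 1.88 (1.72 to 2.05). It was the highest gene of the matched band, with 265 and 32 UMIs and a ratio of 2.24 (1.71 to 2.82). In the 4 groups by mitochondrial share CF-KI had 283 to 362 CPM and the control 58.7 to 83.7 CPM, so the intervals of the libraries did not overlap in any. After thinning, 13.1% of CF-KI members and 3.89% of control members had a Hand2 UMI, against 1.71% and 2.08% of the reference barcodes of other cells, and the level in the other kept barcodes was 112 and 45.9 CPM. Hopx, a homeodomain protein without DNA binding, was second with 0.88 (0.68 to 1.09). The lowest were Hey2, a Notch target of the compact ventricular wall, at 9.49 CPM (6.49 to 13.4) and 20.7 CPM (17.0 to 24.8), a ratio of -1.12 (-1.74 to -0.55), and Ppargc1a, the coactivator of mitochondrial genes, at 799 and 1155 CPM, a ratio of -0.53 (-0.60 to -0.47).

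Clock genes had a median of 0.03 over 14 that passed, with 2 higher and 1 lower. Dbp, a clock output activator, stood at 36.5 CPM (30.3 to 43.5) for CF-KI against 6.03 CPM (4.15 to 8.47) for the control from 123 and 33 UMIs, a log2 ratio of 2.60 (2.03 to 3.20). Nr1d1, the repressor REV-ERB alpha, had 1.03 (0.67 to 1.39) and 0.56 in the matched band. Clock, an activator of the core loop, had -0.48 (-0.66 to -0.30). Dbp had 1.08 in the matched band, from 26 and 7 UMIs. The labels give no time of day for the tissue, so its part was not tested.

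**Figure D5:**
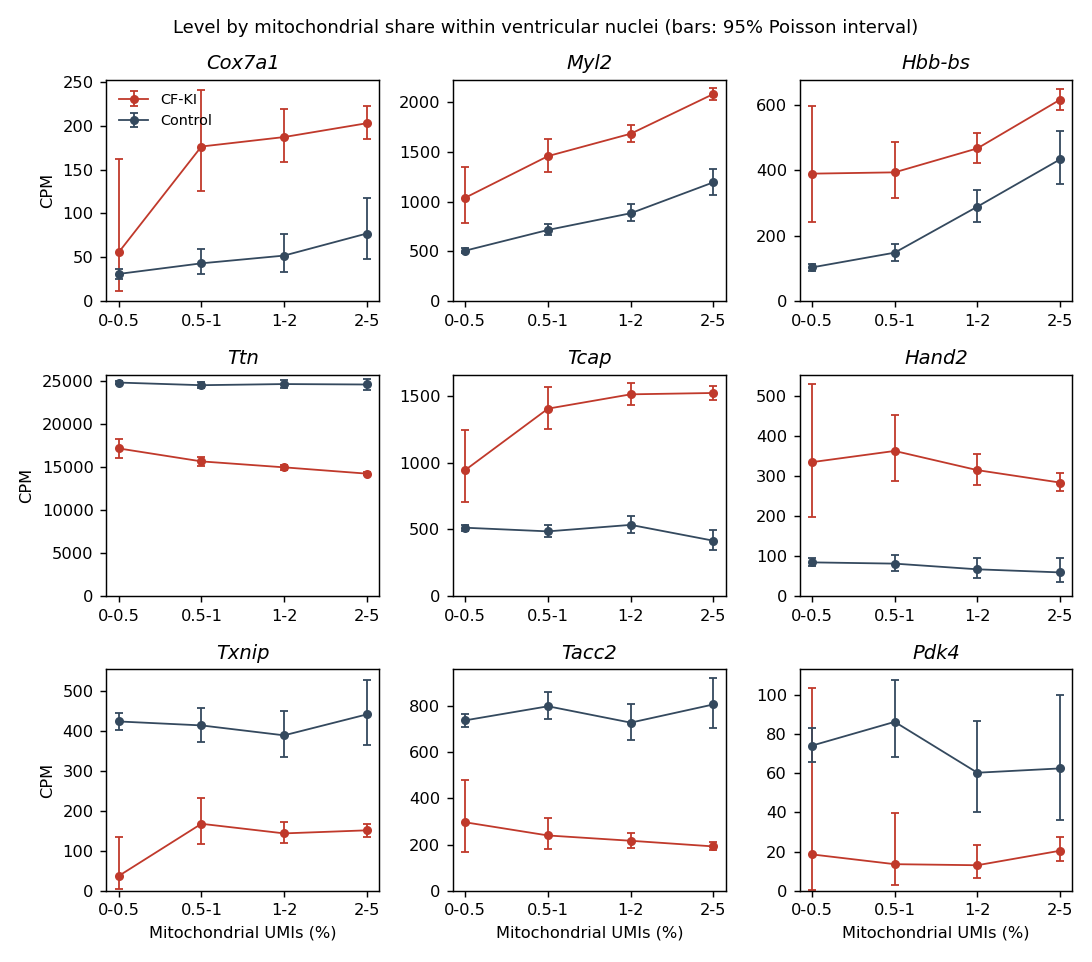
CPM (y axis, starting at 0) of 9 genes in members by mitochondrial share (x axis, %), CF-KI in red and control in grey, with 95% Poisson intervals of the counts. Cox7a1, Myl2 and Hbb-bs are higher at higher mitochondrial share in both libraries, while Ttn, Txnip, Tacc2 and Pdk4 stay lower and Tcap and Hand2 higher in CF-KI across the 4 groups.

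Stress and natriuretic peptide genes had a median of 0.31 over 12 that passed of 16, with 3 higher and 0 lower. Nppb, the B-type peptide released by strained ventricle, stood at 129 CPM (117 to 142) for CF-KI against 68.6 CPM (61.8 to 75.9) for the control, a log2 ratio of 0.92 (0.71 to 1.12) that was 0.42 in the matched band. Mt1, a metallothionein, stood at 332 and 126 CPM, a ratio of 1.40 (1.26 to 1.54) and 1.03 in the matched band. The third was Myh7, given above. Nppa, the atrial peptide and a rule gene, was even over all members at 160 and 159 CPM but had 82 and 154 UMIs in the matched band, a log2 ratio of -1.72. Its ratio between nuclei of at least 1% and under 1% was 2.09 within CF-KI and 1.23 within the control. The lowest of the list were Rcan1, the calcineurin regulator, at -0.35 (-0.87 to 0.16), and Edn1, endothelin, at -0.25 (-0.81 to 0.28), both within counting error.

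Of the immediate early and heat shock genes 4 of 17 that passed were higher and 1 lower, with a median of 0.27. Klf10, a transforming growth factor inducible repressor, stood at 10.7 CPM (7.48 to 14.8) for CF-KI against 51.9 CPM (46.1 to 58.3) for the control, a log2 ratio of -2.28 (-2.82 to -1.78), and had 5 and 26 UMIs in the matched band, a ratio of -3.19. Next lowest was Jun at -0.35. The highest were Klf4 at 0.95 (0.54 to 1.36), which was 0.57 in the matched band, and Hspa8, a constitutive chaperone, at 0.95 (0.83 to 1.07), and after thinning both were found in fewer members than reference barcodes of other cells. For Klf4 the shares were 1.76% and 0.996% of members against 19.7% and 11.5%.

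Interferon stimulated genes passed the minimum in 7 of 20 cases, with 3 higher, 1 lower and a median of 0.44. Bst2, tetherin, stood at 28.8 CPM (23.3 to 35.1) and 7.13 CPM (5.07 to 9.75) from 97 and 39 UMIs, a log2 ratio of 2.01 (1.46 to 2.59), and B2m, the light chain of MHC class I, had 1.23 (0.98 to 1.48). In the matched band no gene of this list reached 100 UMIs, Bst2 had 0.51 (-0.93 to 2.17) from 15 and 6 UMIs and B2m 0.02 (-0.63 to 0.70). After thinning, Bst2 was found in 1.93% of CF-KI and 0.522% of control members and in 17.1% and 8.19% of the reference barcodes, and B2m in 5.79% and 2.61% against 49.6% and 21.8%. Irf9 had -0.62 (-1.22 to -0.05), with -1.39 in the matched band from 6 and 9 UMIs, and Stat2 -0.45 (-1.09 to 0.16). Of the other inflammasome genes that passed, Nek7 had 0.32 (-0.07 to 0.71), Pycard 0.07 and Tlr4 -0.10, all within counting error.

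The medians of the signalling and turnover lists over all members lay between -0.04 and 0.26, beside 0.083 for all genes. Among adrenergic and cyclic AMP genes 2 of 16 were higher and 1 lower, with a median of -0.04. Adrb1, the beta 1 adrenergic receptor, stood at 59.9 CPM (51.9 to 68.8) for CF-KI against 89.0 CPM (81.3 to 97.3) for the control, a log2 ratio of -0.57 (-0.81 to -0.33), and Grk3, a receptor kinase, had -0.96 (-1.42 to -0.52). Gnas and Gnai2, G protein alpha subunits, had 0.88 and 0.79, but 0.27 and 0.19 in the matched band. Growth factor and receptor genes had 2 of 14 higher, 1 lower and a median of 0.19, which was -0.48 over the 4 that passed in the matched band. The lower gene was Fgf1, at 132 and 260 CPM, a ratio of -0.98 (-1.13 to -0.82). Vegfb had 0.69 (0.36 to 1.02) and 0.47 in the matched band, Bmpr1a 0.69 (0.40 to 0.97) and Ghr, the growth hormone receptor, -0.58.

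Protein turnover genes had 4 of 18 higher, 3 lower and a median of 0.26. The muscle ubiquitin ligases of atrophy were both lower: Fbxo32, atrogin 1, stood at 149 CPM (136 to 163) for CF-KI against 276 CPM (263 to 291) for the control, a log2 ratio of -0.89 (-1.04 to -0.75), and Trim63, MuRF1, had -0.63 (-0.72 to -0.53). The matched band gave -1.15 and -0.75. The highest were Fbxl22, a sarcomeric F-box protein, at 1.04 (0.77 to 1.32), and Map1lc3a, an autophagosome protein, at 0.97 (0.78 to 1.17) and 0.56 in the matched band.

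Among all genes with at least 400 UMIs, the 10 highest were Cox7a1, Uqcr11, Ndufa4, Uqcrb, Ndufb1-ps, Ndufa1, Hbb-bs, Chchd10, Nme2 and Cox6b1, with log2 ratios from 2.39 down to 1.91. All but Hbb-bs and Nme2 encode mitochondrial proteins or resemble genes that do. The ratios of Ndufa4, Ndufb1-ps, Chchd10 and Cox6b1 were 2.05, 1.99, 1.96 and 1.91 over all members and 1.35, 1.12, 0.995 and 1.14 in the matched band. After the airway genes Bpifa1 and Scgb1a1, the lowest included Pdk4, Tacc2, Aldh9a1, Txnip, Gpam, Sned1 and Adamtsl5. Tacc2, a centrosomal coiled-coil protein, rested on the most counts, with 685 and 4109 UMIs, or 203 CPM (188 to 219) for CF-KI against 751 CPM (729 to 775) for the control, a ratio of -1.89 (-2.005 to -1.77) and -1.75 in the matched band. Aldh9a1, an aldehyde dehydrogenase of carnitine synthesis, had -1.69 (-1.98 to -1.41). Gpam, the mitochondrial enzyme that starts triglyceride synthesis, had -1.36, Sned1, a matrix glycoprotein gene, -1.35 and Adamtsl5, a matrix protein gene, -1.34. In the matched band these 4 had -1.996, -1.67, -1.62 and -1.79. Chosen after their values were seen, Zrsr1 (2.07) and Popdc2 (1.56), a cyclic AMP binding membrane protein of muscle, were also among the highest there.

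The reference barcodes of other cells held many of the named genes in as large a share as the members. After thinning, the share of members with a UMI was at or below theirs in both libraries for Txnip, Ndufa4, Uqcrb, Ndufb1-ps, Ndufa1, Cox6b1, Nme2, Gapdh, Pgk1, Ctnnb1, Gnas, Gnai2, Grk3, Hey2, Jun, Hspa8, Klf4, B2m, Bst2, Bmpr1a, Irf9, Stat2, Nek7, Pycard, Edn1, Nppa, Bpifa1 and Gm42418. It was so in 1 library for Pdk4, Cox7a1, Uqcr11, Chchd10, Hbb-bs, Scgb1a1, Klf10, Dbp, Abcc9, Ech1, Kcnj5, Rcan1, Sdhc and Malat1. The CF-KI reference was 117 barcodes, so a small share there rests on few barcodes. For Pdk4 the share of members was 0.795% against 1.71% in CF-KI, and 4.03% against 1.12% in the control. Of the genes chosen after their values were seen, Zrsr1 and Thra were at or below the reference barcodes in both libraries, and Coq10b in the control. Those cells may express these genes themselves, and the part of RNA from other cells in the differences was not tested.

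Variation between nuclei was measured as the Fano factor, the variance over the mean of counts after thinning to 500 UMIs. For pure counting noise it is near 1 in a gene with a small share of the 500 UMIs. It is below 1 in a gene with a large share, such as Malat1. Malat1 had 10.1 (CF-KI) and 14.7 (control), with a mean of 203 and 216 UMIs of the 500. Ttn had 2.45 and 5.16, with means of 6.87 and 11.76 UMIs and a highest value of 33 and 74. Several other genes at the top rested on few nuclei. In CF-KI Scgb1a1 (8.66) was found in 0.114% of nuclei with up to 10 UMIs and Cbr2 (5.28), another airway gene, in 0.114%, followed by Dqx1, Fbn2, Ebf1 and Crym. In the control Dynll2, a dynein light chain gene, had 16.8 with up to 30 UMIs in a nucleus and a mean of 0.0261, and Zcrb1 (4.49), Derl3, Gm29773, Vmn2r3 and F830016B08Rik followed. Such values of single nuclei describe those nuclei and not the class.

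Barcodes that met the rule but for a higher mitochondrial share are described beside the members. They had fewer non-mitochondrial UMIs at the median than the members in both libraries. Above 20% their median ventricular sum was 10.8% (CF-KI) and 17.1% (control), against 4.69% and 4.71% in the members. From 5% to 20% (3113 for CF-KI against 126 for the control) Malat1 stood at 256649 and 264190 CPM, and above 20% (2961 and 243) at 102562 and 98871 CPM. Myl2 was higher there, at 4648 and 3908 CPM and at 10092 and 10427 CPM, so the libraries lay closer together than among the members. Ttn was lower in CF-KI throughout, with 12468 against 26792 CPM and 31585 against 56284 CPM. Txnip differed less than in the members, at 314 CPM (294 to 335) against 450 CPM (363 to 551) from 5% to 20%, and at 307 CPM (282 to 333) against 329 CPM (260 to 411) above 20%, where the intervals overlap. Hand2 was higher in CF-KI from 5% to 20%, at 185 CPM (169 to 201) against 82.2 CPM (47.9 to 132), while above 20% it stood at 102 CPM (88.2 to 118) against 59.8 CPM (32.7 to 100.4) from 187 and 14 UMIs, where the intervals overlap. Barcodes with 3 or more atrial genes numbered 5 and 42, too few in CF-KI for a comparison.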

How the data were processed

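Single-nucleus RNA-seq was analysed from 2 libraries, 1 per group. The deposited files give raw counts of UMIs for each barcode, made with Cell Ranger 6.1.1 on mm10 per the submitters' processing notes; cell calling settings are not given in the sources used here. The CF-KI counts totalled 21603653 UMIs and the control counts 18040776. Features sharing a symbol were summed to 32245, and positions came from GENCODE vM21 by Ensembl identifier. Members' UMIs were summed per library and expressed as CPM of non-mitochondrial UMIs, with exact Poisson intervals for levels and conditional binomial intervals for ratios (numpy 2.4.6, scipy 1.17.1, pandas 2.3.3). UMIs may share amplification error, so the intervals cover counting error only. Lists were described over genes that reached 100 UMIs when the libraries were added. The method was tested on simulated data.

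The members and gene lists were chosen with earlier results of these data known. Genes named are those of the membership rule, Nlrp3, Tcf21, the 2 highest and 2 lowest of each list, the 10 highest and 10 lowest with at least 400 UMIs (counts under 3 set to 3), and the 8 with the highest Fano factor per library; other names are stated as chosen after their values were seen, or complete a count of 5 or fewer. Scrublet was run through scanpy 1.11.5, edgeR 4.0.16 supplied TMM factors and DESeq2 1.42.0 its size factors, for scaling only. Alternatives covered the mitochondrial limit, gene minimum, rule thresholds, doublets, scaling, thinning to 500 UMIs, the UMI minimum and the split of nuclei. A few genes that this rule would name are not reported here.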

Additional observations from a re-analysis of the deposited data

How the results depend on the processing

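The 15 main results, 14 other list medians and 96 single-gene ratios were recomputed in 1768 combinations with alternatives. Of the main results, 88 values stayed within the counting interval or 1.5 times of a count, and 46 moved. Sign changes among them numbered 17, all in medians near 0: the potassium channel median (-0.01, up to 0.56), the clock median (0.029, down to -0.33) and the fatty acid median (-0.04, up to 0.15). Of the other list medians, 31 values changed sign, none from a median past 1.5-fold. The 47.1 point difference in member share was 21.3 points with a mitochondrial limit of 1%, 25.4 with 20%, 30.2 with none, 40.7 with at least 500 genes, 34.6 with none of the atrial genes, 32.1 with 0 UMIs of other cell genes and 3.87 with a ventricular sum of at least 6%.

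The 1185 higher and 472 lower genes were 16.6% and 6.62% of 7130 genes tested. With a limit of 1% the counts were 707 and 885, and in the matched band 186 and 186, each 12.7% of 1465 genes. They were 372 and 210 with a sum of at least 6% and 396 and 246 after thinning to 500 UMIs. With a minimum of 20 UMIs they were 2575 and 1033, and with 400 UMIs 381 and 158. Higher genes alone moved to 538 (12.2% of 4400 genes, with 13% lower) from 1% to 5%, 3015 with a limit of 20% and 3808 with none. TMM scaling, which shifts every log2 ratio by -0.16, gave 876 lower genes; median-of-ratios shifts by -0.08. Every setting here but scaling changes how many genes are tested, so counts without a share beside them cannot be compared as shares. Gene calls near the threshold can therefore turn on the setting.

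The respiratory chain median of 1.51 was 1.08 with a limit of 1%, 0.93 from 1% to 5%, 0.95 in the matched band, 1.82 with 20%, 1.86 with no limit and 1.35 under TMM. The calcium median of 0.47 was 0.22, 0.21, 0.26 and 0.29 in the first 4 of these, 0.34 with a sum of at least 6%, 0.31 under TMM and 0.36 after thinning. The stress median of 0.31 was 0.59 with a limit of 1%, 0.84 with a sum of at least 6%, 0.63 after thinning and 0.63 with a minimum of 400 UMIs. The fatty acid median was 0.15 with a sum of at least 6%, and the potassium channel median 0.56 in the matched band, where 3 genes passed. Split at 2%, the within-library counts were 200 higher and 19 lower in CF-KI (641 and 136 of 3840 genes at 1%). In the control they were 1197 and 338 (743 and 84 of 5142 genes at 1%). The cause of these moves was not tested.

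Of single-gene values 34 changed sign, 6 of them in genes past 1.5-fold: Klf4 was -0.32 with a limit of 1% and -0.16 from 1% to 5%, Gnai2 -0.24 from 1% to 5%, Cacnb2 -0.049 and Irf9 0.15 with no limit, and Kcnh2 1.05 with a sum of at least 6%. No paired analysis was possible because each group had 1 library. Leaving out a replicate was not possible for the same reason.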

Other observations

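Among genes with at least 100 UMIs and outside the gene lists, chosen after their values were seen, AA465934 had the highest ratio in ventricular nuclei, with 126 (CF-KI) and 10 (control) UMIs, a log2 ratio of 4.35. Unc45bos, an opposite-strand transcript of a myosin chaperone locus whose reads may be hard to assign, had 21 and 164 UMIs, a log2 ratio of -2.27. Thra, the thyroid hormone receptor alpha gene, had 306 and 813 UMIs, a log2 ratio of -0.71 that was -1.48 in the matched band. Cpeb3, a regulator of mRNA translation, had 635 and 2361 UMIs, a log2 ratio of -1.20 that was -1.43 in the matched band. Coq10b, a coenzyme Q binding protein gene of mitochondria, had 1.15 over all members and 1.60 in the matched band.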
